A study of Rattus norvegicus with 138 samples.

Results

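Collagens are secreted or membrane-bound proteins whose chains wind around each other into a rope-like helix, and they give the extracellular matrix its strength and its anchoring sites. The collagen genes were taken as every row of the gene tables whose symbol is Col, a number, the letter a and a number, which gave 43 of 32883 genes. Of these 43 genes, 11 encode fibrillar collagens, 6 encode the basement membrane collagens of type IV and 26 encode other kinds. The other kinds were 9 fibril-associated (FACIT) collagens, 5 beaded filament collagens of type VI, 4 transmembrane collagens, 3 short chain collagens, 2 multiplexins and 3 anchoring or other collagens. Col6a3 and Col21a1 were not analysed here.

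In the brain, fibrillar collagens are found mainly in the meninges and around larger vessels, and their chains are made chiefly by fibroblasts. Type IV collagen forms the sheet-like basement membrane of capillaries, where endothelial cells, pericytes and astrocyte endfeet meet, while FACIT collagens coat or link fibrils and transmembrane collagens sit on the surface of epithelial cells or neurons. In hypertension, collagen in the walls of arteries is a well-known site of remodeling.

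The samples were brainstem punches from female spontaneously hypertensive rats (SHR/NHsd), an inbred strain whose blood pressure climbs with age, and from female Wistar Kyoto rats (WKY/NHsd), the normotensive control strain. The labels name no treatment, and each rat was used at 8, 10, 12, 16 or 24 wk. The WKY rats numbered 5, 4, 3, 3 and 3 at these ages and the SHRs 5, 5, 6, 6 and 6. From each of the 46 rats RNA was sequenced from 3 regions. These were the NTS (nucleus of the solitary tract), where baroreceptor afferents end, the caudal ventrolateral medulla (CVLM), which relays inhibition, and the rostral ventrolateral medulla (RVLM), which drives sympathetic outflow. The comparison of strains is between a pair of inbred strains that differ at many loci, and a punch is a mixture of neurons, glia, vessels and any meninges it took in.

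The libraries held from 5904570 to 17889406 counts assigned to genes, with a median of 10143018. Dbh, which makes noradrenaline, had median levels of 67.7, 85 and 9.55 CPM (counts divided by the library size and scaled to a common total) in the NTS, CVLM and RVLM, and Pnmt, which makes adrenaline, had 3.60, 41.8 and 19.6 CPM. Some NTS libraries of WKY rats stood apart by choroid plexus transcripts, the summed markers of that tissue reaching 4463 CPM in WKY rats against 11.6 CPM in SHRs. Results below are given with and without the marker-rich libraries where these changed a call, and the age of 2 CVLM libraries at 8 wk, 1 of each strain, was taken from their titles because another label disagreed.

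A gene was tested in a region if its largest regularized log value reached 3.5, which 25, 24 and 22 collagens did in the NTS, CVLM and RVLM. In all, 28 collagens passed in at least 1 region and 21 in every region. Levels of the remaining genes varied. Col10a1, a short chain collagen of growth plate cartilage, and Col23a1, a transmembrane collagen, averaged at most 0.14 CPM in each region. Col22a1, a FACIT collagen, averaged 0.79, 0.72 and 0.84 CPM in the NTS, CVLM and RVLM and was not tested either. Col1a2 also failed this filter in every region. It had no count in 40, 41 and 34 of the 46 libraries of the NTS, CVLM and RVLM and at most 102, 33 and 59 counts in any library, whereas Col1a1, the partner chain of type I collagen, had counts in every library. Because of these zeros no fold change is given for Col1a2. Transcript lengths were not used, so levels are compared between libraries and not between genes.

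Promoter windows are shown for the genes whose levels are followed most closely below: Col4a1 and Col4a2, which encode the partner chains of the main type IV collagen of capillaries and lie head to head on a shared promoter, and Col16a1, the FACIT collagen with a strain difference in all 3 regions. Each window runs from 250 bases before to 50 bases after the annotated start, from RefSeq on GRCr8, 5′ to 3′ on the strand of the gene. Capitals mark the motifs searched for on both strands. These were the GC box, which reads GGGCGG, the CCAAT box, and the TATA box, which here had to read TATAAA. The windows lie at chr16:84885347-84885646 (plus strand, Col4a1), chr16:84885471-84885770 (minus strand, Col4a2) and chr5:147672846-147673145 (plus strand, Col16a1).
Col4a1: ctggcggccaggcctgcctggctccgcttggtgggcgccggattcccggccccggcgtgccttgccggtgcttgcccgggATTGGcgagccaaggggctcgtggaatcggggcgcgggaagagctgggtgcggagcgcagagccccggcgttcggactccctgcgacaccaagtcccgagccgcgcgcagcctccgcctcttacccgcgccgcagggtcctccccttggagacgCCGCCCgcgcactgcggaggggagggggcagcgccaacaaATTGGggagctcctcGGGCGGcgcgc
Col4a2: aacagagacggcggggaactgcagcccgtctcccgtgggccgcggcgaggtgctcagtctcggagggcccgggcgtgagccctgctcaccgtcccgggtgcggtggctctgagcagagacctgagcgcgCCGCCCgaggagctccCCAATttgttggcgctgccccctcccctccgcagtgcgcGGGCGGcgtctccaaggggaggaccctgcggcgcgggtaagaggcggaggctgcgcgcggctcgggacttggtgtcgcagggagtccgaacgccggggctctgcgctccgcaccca
Col16a1: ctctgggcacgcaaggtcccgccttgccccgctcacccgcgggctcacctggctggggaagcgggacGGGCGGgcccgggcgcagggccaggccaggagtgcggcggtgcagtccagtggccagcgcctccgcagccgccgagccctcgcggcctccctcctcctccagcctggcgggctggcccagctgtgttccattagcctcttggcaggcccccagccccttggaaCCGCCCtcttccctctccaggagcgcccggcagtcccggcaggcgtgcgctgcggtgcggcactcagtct

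The annotated starts of Col4a1 and Col4a2 lie 77 bases apart on opposite strands, and their windows overlap by 176 bases. The Col4a1 window holds 2 GC boxes and 2 CCAAT matches and that of Col4a2 holds 2 GC boxes and 1 CCAAT match, while the Col16a1 window holds 2 GC boxes. None of these windows holds TATAAA. Their GC contents were 75%, 73.7% and 75%, against a median of 51.7% over all promoter windows, of which 3.24% were at or above Col16a1. A promoter window was matched for 34 of the 43 collagens. Counting a gene if any of its windows held the motif, a GC box was found for 19 of these 34 genes, CCAAT for 11 and TATAAA for 4. Of all 33469 windows, 33.1% held a GC box, 37.5% CCAAT and 14.2% TATAAA. The first counts are of genes and the shares are of windows, so they cannot be compared directly.

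The first comparison asked which collagens differed between SHRs and WKY rats, taking the mean of the strain difference over the 5 ages. Col16a1 was lower in SHRs in all 3 regions, while Col6a2, a chain of the beaded filament collagen VI, Col4a5, a type IV chain, and Col18a1, the basement membrane multiplexin from which endostatin is cut, were higher in SHRs in all 3. Col9a1, a chain of the FACIT collagen IX, was 4.51-fold lower in the RVLM of SHRs. Its largest RVLM value, on which the filter rests, was in a WKY rat, the strain where it was higher. No fibrillar collagen was higher in SHRs in any region.

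In the NTS 5 of 25 tested collagens (20%) were higher in SHRs and 1 (4%) was lower, against 5.66% higher and 5.51% lower among all genes tested (edgeR quasi-likelihood test, adjusted p under 0.05). In the CVLM 5 of 24 (20.8%) were higher and 2 (8.33%) were lower, against 5.28% and 7.0% of all genes. In the RVLM 3 of 22 (13.6%) were higher and 2 (9.09%) were lower, against 5.84% and 4.98%. The shares that were higher in SHRs thus stood above the background in each region, by few genes. The median log2 fold change of the tested collagens was 0.16, 0.14 and 0.11 in the NTS, CVLM and RVLM, against 0.01, 0.00 and 0.01 over all genes tested.

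By class, 0 of 9, 0 of 8 and 0 of 8 tested fibrillar collagens were higher in SHRs in the NTS, CVLM and RVLM and 1, Col5a3 in the CVLM, was lower (edgeR). At an unadjusted p under 0.05, 1, 0 and 2 were higher, and DESeq2 gave the same counts. Of the 5 tested basement membrane collagens, 1 was higher in each region, which was Col4a5 each time. Of the other collagens, 4 of 11, 4 of 11 and 2 of 9 were higher, and 1, 1 and 2 were lower. The calls lay mostly outside the fibrillar class, although differences between classes were not tested.

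**Figure D1:**
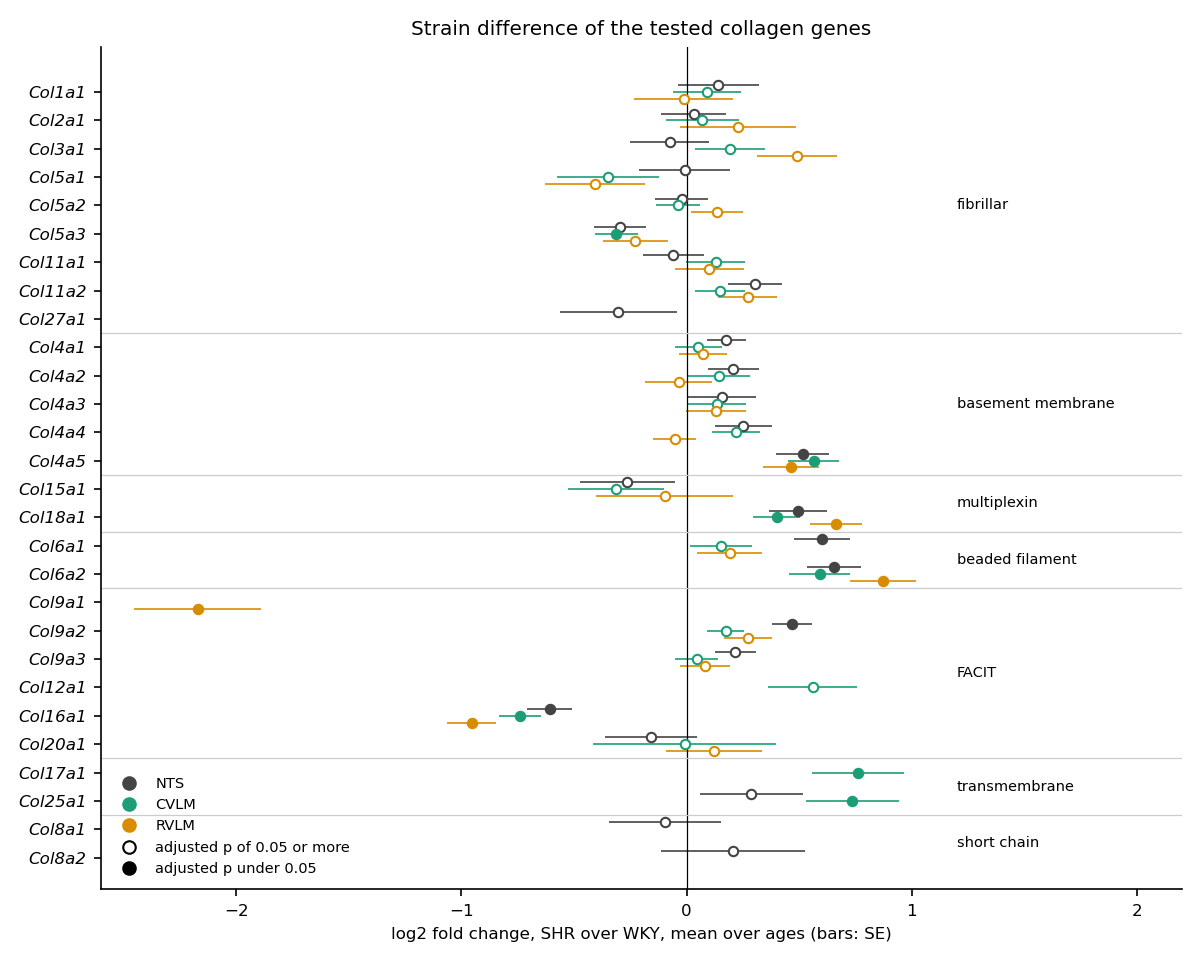
Strain difference of each tested collagen as log2 fold change of SHRs over WKY rats, averaged over the 5 ages, with bars for the SE (18 WKY rats and 28 SHRs per region), colored by region and grouped by class. Filled points passed an adjusted p of 0.05: Col16a1 lies left of 0 in every region, from -0.61 to -0.96, and Col4a5, Col18a1 and Col6a2 lie right of it in every region.

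Col16a1 in the RVLM ranged from 10.5 to 26.6 CPM in WKY rats (median 17.6) and from 2.96 to 15.6 CPM in SHRs (median 8.98). The libraries of 24 of the 28 SHRs lay below all 18 WKY libraries. The means were 17.6 ± 3.88 CPM in the 18 WKY rats and 9.10 ± 2.37 CPM in the 28 SHRs (SD), a 1.94-fold difference (log2 fold change -0.96 ± 0.11 SE, adjusted p = 6.21e-09). In the CVLM the WKY libraries ranged from 10.8 to 20.8 CPM (median 15.2) and the SHR libraries from 6.07 to 14.2 CPM (median 9.36). Of these, 21 of 28 SHRs lay below every WKY rat, and the means of 15.8 ± 3.25 and 9.58 ± 2.22 CPM differed by -0.74 ± 0.09 on the log2 scale (adjusted p = 3.27e-08). In the NTS the ranges overlapped more, from 7.30 to 17.7 CPM (median 11.7) in WKY rats and from 4.51 to 12.9 CPM (median 7.73) in SHRs. Still 9 of 28 SHRs lay below every WKY rat, with means of 11.9 ± 3.14 and 7.87 ± 1.81 CPM (log2 fold change -0.61 ± 0.10, adjusted p = 1.31e-05).

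The strain difference of Col16a1 was present at most ages in the RVLM. At 8 wk the WKY libraries held 13.4, 14.3, 17.6, 19.8 and 26.6 CPM and the SHR libraries 9.39, 9.77, 10.3, 10.5 and 14.1 CPM (log2 fold change -0.76, adjusted p = 0.0311). At 12 wk the values were 17.6, 18.7 and 21.8 CPM in WKY rats and 7.70 to 9.01 CPM in SHRs (-1.19, adjusted p = 0.00273). At 16 wk they were 15.8, 20.5 and 22.7 CPM against 7.02 to 11.4 CPM (-1.24, adjusted p = 0.00144). The groups did not overlap at 10, 12 and 16 wk, whereas at 8 wk 1 SHR reached into the WKY range. At 24 wk, where the SHRs spread from 2.96 to 15.6 CPM, the difference did not pass the test. In the NTS it passed at 12 and 16 wk (-0.81 and -0.97, adjusted p = 0.0363 and 0.0101), and in the CVLM at 10 and 16 wk (-0.98 at both ages, adjusted p = 0.00123 and 0.00274). The call at 12 wk in the NTS was lost without the marker-rich libraries (-0.85, adjusted p = 0.404), which left 1 WKY rat at that age, without any 1 of the 3 WKY rats, and with the replicate number as a block (-0.82, adjusted p = 0.309), numbers that correlated in each of the 3 pairs there. Those at 16 wk in the NTS and CVLM were lost without WKY replicate 2 (adjusted p = 0.0957) and WKY replicate 1 (adjusted p = 0.0551), and those at 8 and 10 wk in the RVLM in 5 and 6 of the 28 fits that each left out 1 library.

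**Figure D2:**
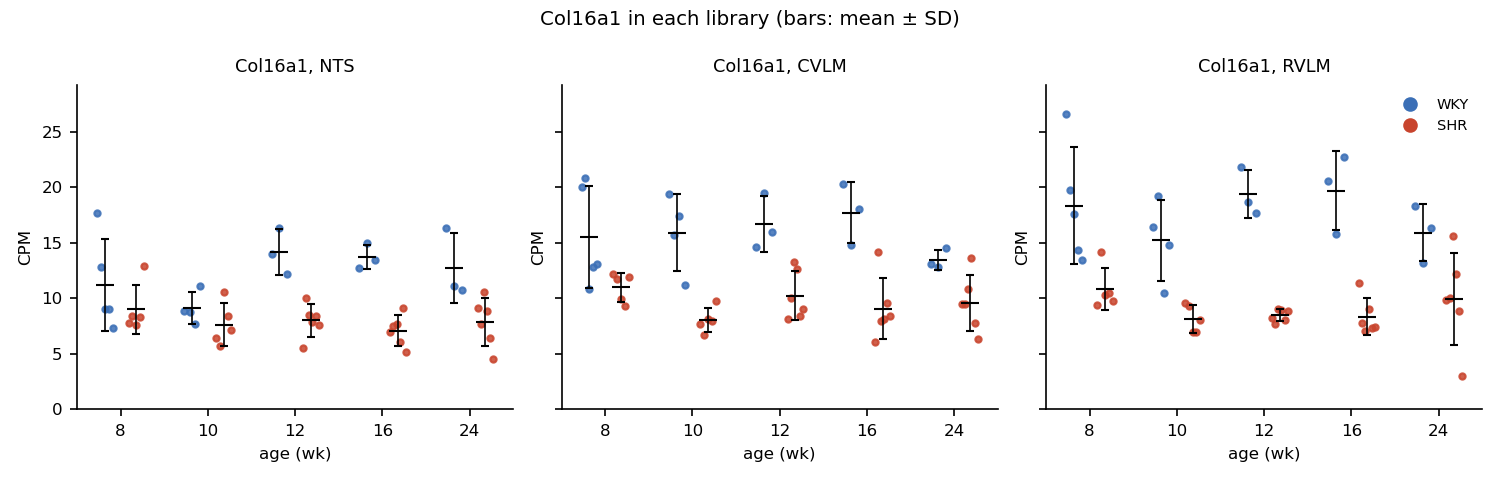
Col16a1 in CPM in every library of the NTS, CVLM and RVLM by age in wk, WKY rats in blue and SHRs in red, with bars for the mean ± SD of each group. In the RVLM the red points sit below the blue points without overlap at 10, 12 and 16 wk, and at 24 wk the SHRs spread from 2.96 to 15.6 CPM.

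Collagen IX is assembled from the products of Col9a1, Col9a2 and Col9a3, best known from cartilage, where it sits on the surface of type II fibrils. Col9a1 was scarce, with at most 40 counts in any RVLM library, and ranged there from 0.695 to 2.88 CPM in WKY rats (median 1.45) and from 0 to 1.17 CPM in SHRs (median 0.224). Of the 28 SHRs, 26 lay below every WKY rat (log2 fold change -2.17 ± 0.28, adjusted p = 9.62e-08). At 8 wk the WKY libraries held 0.976, 1.5, 2.27, 2.28 and 2.88 CPM and the SHR libraries 0, 0.224, 0.331, 0.395 and 0.633 CPM (-2.65, adjusted p = 0.00254), and the difference also passed at 12 wk (-2.92, adjusted p = 0.00937). The call at 8 wk was lost without the libraries whose names end in 2 outside 10 wk (-2.57, adjusted p = 0.0575), and that at 12 wk when this age was fitted alone (-2.90, adjusted p = 0.14). In the RVLM the largest value, on which the filter rests, was in a WKY rat, and the call in the mean over ages was kept with no filter. Col9a1 did not pass the filter in the other regions. Tested with no filter there, it was also lower in SHRs, by -1.07 ± 0.29 in the NTS (0.721 ± 0.383 against 0.331 ± 0.240 CPM, adjusted p = 0.0122) and by -1.26 ± 0.32 in the CVLM (0.862 ± 0.434 against 0.295 ± 0.234 CPM, adjusted p = 0.00539). With no filter 2 of 43 collagens were lower in each of these regions, Col9a1 and Col16a1, against 3.29% and 3.66% of all genes with a count. Col9a2 went the other way. It was higher in the NTS of SHRs (7.88 ± 1.91 against 10.8 ± 1.84 CPM, 0.47 ± 0.09, adjusted p = 1.24e-04), where at 24 wk the WKY libraries held 5.57, 6.12 and 6.45 CPM and the 6 SHR libraries 9.30 to 12.1 CPM with no overlap (0.80, adjusted p = 0.0242). That call was lost without WKY 24 wk replicate 1 (0.74, adjusted p = 0.224) or replicate 3 (0.84, adjusted p = 0.0904). In the CVLM and RVLM Col9a2 did not pass (0.17 and 0.27, adjusted p = 0.205 and 0.101), nor did Col9a3 in any region.

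Collagen VI forms beaded microfilaments close to basement membranes, and mural cells and fibroblasts make it. Col6a2 in the RVLM ranged from 1.16 to 4.91 CPM in WKY rats (median 2.64) and from 1.98 to 8.72 CPM in SHRs (median 4.84). Here 14 of 28 SHRs lay above every WKY rat, and the difference was 0.87 ± 0.15 on the log2 scale (adjusted p = 2.34e-05). It was seen already at 8 wk, at 1.39, 2.01, 2.23, 3.01 and 4.91 CPM in WKY rats and 4.43, 6.72, 6.87, 7.40 and 8.72 CPM in SHRs, a 2.51-fold difference with 1 SHR inside the WKY range (adjusted p = 0.00322). The difference at 8 wk shrank from 1.33 to 0.75 on the log2 scale without the libraries whose names end in 2 outside 10 wk (adjusted p = 0.499), and did not pass with the name number as a term (0.97, adjusted p = 0.0893) or with that age fitted alone (adjusted p = 0.0551). In the NTS Col6a2 ranged from 2.66 to 12.8 CPM in WKY rats and from 5.59 to 13.0 CPM in SHRs, groups that overlapped over most of their range, with means of 6.16 ± 2.41 and 9.62 ± 1.97 CPM (0.65 ± 0.12, adjusted p = 6.88e-05). Its means in the CVLM were 3.53 ± 1.21 and 5.31 ± 1.66 CPM (0.59 ± 0.14, adjusted p = 0.00142). Col6a1, the partner chain, was higher in SHRs in the NTS (2.86 ± 0.756 against 4.21 ± 1.36 CPM, 0.60 ± 0.12, adjusted p = 4.35e-04), where at 8 wk the SHR values of 4.29 to 6.55 CPM lay above the WKY values of 2.18 to 4.11 CPM (0.81, adjusted p = 0.0449). The call at 8 wk was lost without the marker-rich libraries (0.79, adjusted p = 0.115), under 4 further alternatives and in 6 of the 28 fits without 1 library. It did not pass in the CVLM and RVLM (0.15 and 0.19, adjusted p = 0.592 and 0.484).

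Col18a1 in the RVLM averaged 3.93 ± 1.13 CPM in WKY rats and 6.19 ± 1.44 CPM in SHRs (0.66 ± 0.12, adjusted p = 3.16e-05), and 14 of 28 SHRs lay above every WKY rat. At 24 wk the WKY libraries held 2.48, 2.82 and 3.59 CPM and the SHR libraries 4.22, 5.22, 5.41, 6.76, 6.83 and 8.93 CPM, which did not overlap (2.09-fold, adjusted p = 0.0269). This call was lost without WKY 24 wk replicate 1 (adjusted p = 0.22) or 3 (adjusted p = 0.189) and with that age fitted alone (adjusted p = 0.114). It was also higher in the CVLM (3.21 ± 0.820 against 4.24 ± 0.978 CPM, 0.40 ± 0.10, adjusted p = 0.00578) and the NTS (3.83 ± 1.12 against 5.44 ± 1.47 CPM, 0.49 ± 0.13, adjusted p = 0.00705). The call in the NTS was lost when the replicate number was added as a block (adjusted p = 0.0674).

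Among the type IV chains, Col4a5, which joins networks of kidney, lung and vessel walls, was higher in SHRs by 0.52 ± 0.12 in the NTS (5.59 ± 1.68 against 7.69 ± 3.02 CPM, adjusted p = 0.00156), 0.57 ± 0.11 in the CVLM (4.21 ± 1.71 against 5.70 ± 1.61 CPM, adjusted p = 2.52e-04) and 0.46 ± 0.12 in the RVLM (5.39 ± 2.0 against 7.07 ± 2.28 CPM, adjusted p = 0.00891). At 10 wk in the NTS its values were 3.82, 5.59, 7.38 and 7.80 CPM in WKY rats and 6.22, 10.3, 11.7, 14.5 and 14.7 CPM in SHRs, 4 of the 5 above every WKY rat (0.95, adjusted p = 0.0162), a call lost with that age fitted alone (adjusted p = 0.094) and in 4 of the 28 fits without 1 library. Col4a1 and Col4a2, the chains that every capillary basement membrane uses, did not pass. Their log2 fold changes were 0.18, 0.05 and 0.07 for Col4a1 (adjusted p = 0.233, 0.850 and 0.745) and 0.21, 0.14 and -0.04 for Col4a2 in the NTS, CVLM and RVLM. At single ages Col4a1 passed once, at 10 wk in the NTS (0.64, adjusted p = 0.0400). That call was lost without the marker-rich libraries (0.68, adjusted p = 0.0628), with no filter (adjusted p = 0.0628), with that age fitted alone (adjusted p = 0.15) and in 6 of the 28 fits without 1 library.

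The fibrillar collagens gave 1 call. Col5a3, a chain of the type V collagen that starts fibrils, was lower in the CVLM of SHRs (8.80 ± 3.00 against 6.84 ± 2.44 CPM, -0.31 ± 0.10, adjusted p = 0.0218), and at 10 wk there the SHR values of 4.0 to 5.10 CPM lay below the WKY values of 6.92 to 8.13 CPM (-0.71, adjusted p = 0.0463). The call at 10 wk was lost in 20 of the 28 fits without 1 library, with no filter (adjusted p = 0.0858) and with another normalization (adjusted p = 0.0517). The mean call was lost without WKY 24 wk replicate 1 (adjusted p = 0.0997), without SHR 10 wk replicate 2 (adjusted p = 0.0593), with no filter (adjusted p = 0.0556) and with the replicate block (adjusted p = 0.083). Col1a1, the main chain of type I collagen, differed by 0.14, 0.09 and -0.01 (adjusted p = 0.770, 0.814 and 0.983). Col3a1, the type III collagen of soft tissue and vessel walls, differed by -0.07, 0.19 and 0.49 (adjusted p = 0.898, 0.529 and 0.0713), and Col11a2, a chain of the cartilage-type collagen XI, by 0.30, 0.15 and 0.27 (adjusted p = 0.10, 0.485 and 0.213).

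In the CVLM the transmembrane collagens Col17a1, of hemidesmosomes, and Col25a1, a neuronal collagen found in amyloid plaques, were higher in SHRs. Col17a1 averaged 1.24 ± 0.593 CPM in WKY rats and 2.0 ± 0.883 CPM in SHRs, with 10 of 28 SHRs above every WKY rat (0.76 ± 0.21, adjusted p = 0.00802). Col25a1 averaged 0.789 ± 0.468 and 1.28 ± 0.600 CPM (0.74 ± 0.21, adjusted p = 0.0120), a call that was lost without the libraries whose names end in 2 outside 10 wk (0.67, adjusted p = 0.0534). In the RVLM, where both genes fell under the filter, the test with no filter also put them higher in SHRs, at 0.107 ± 0.122 against 0.261 ± 0.208 CPM for Col17a1 (adjusted p = 0.0316) and 0.221 ± 0.218 against 0.53 ± 0.302 CPM for Col25a1 (adjusted p = 0.0148). With no filter 5 of 43 collagens were higher in the RVLM of SHRs, against 3.77% of all genes with a count.

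**Figure D3:**
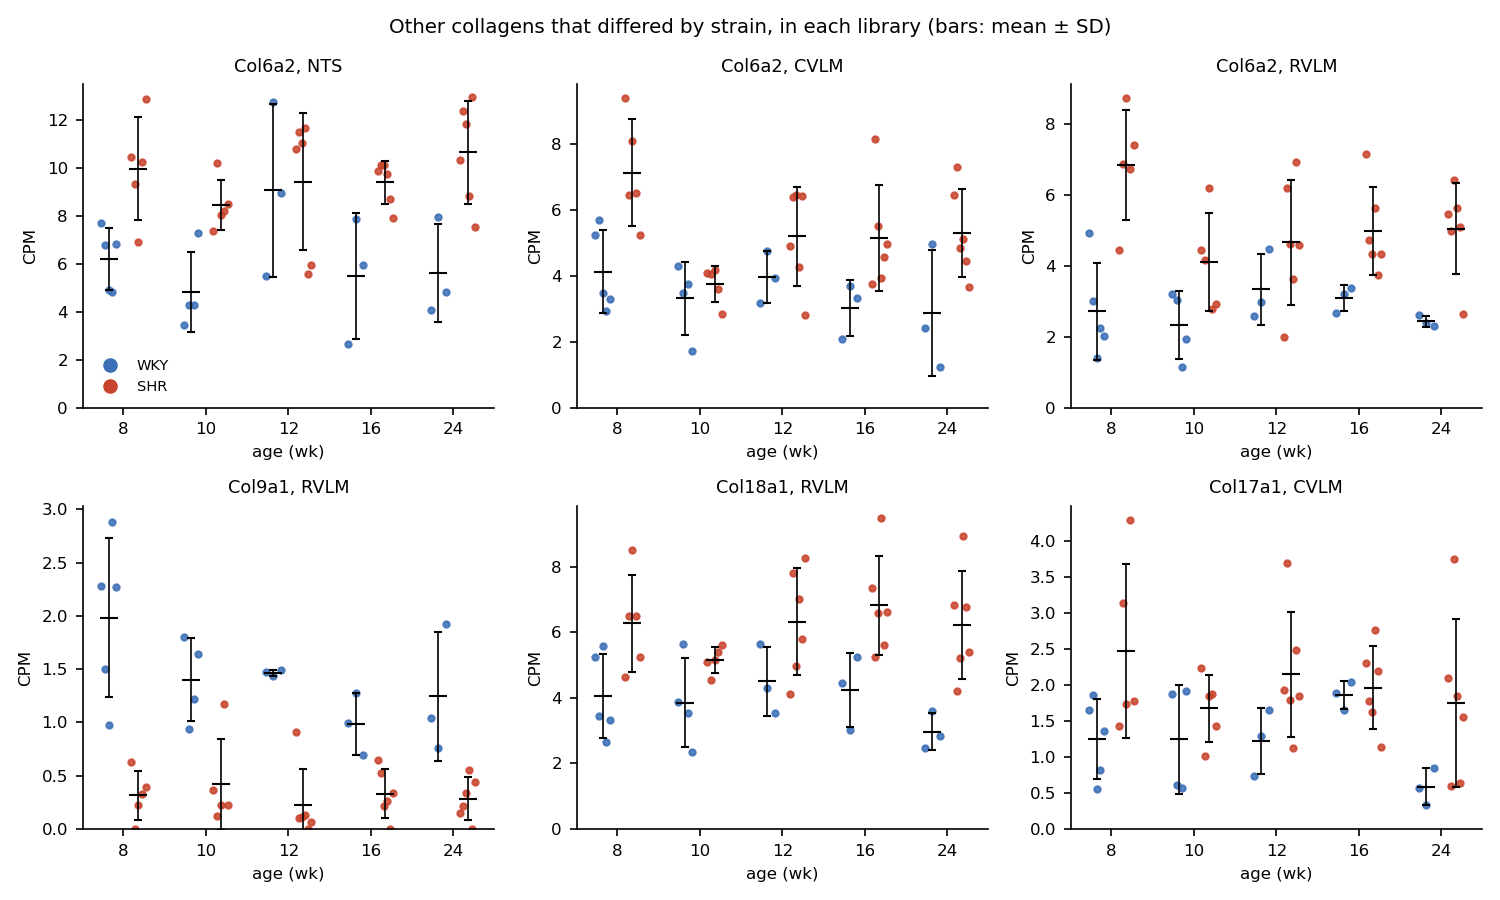
Col6a2 in the NTS, CVLM and RVLM, Col9a1 and Col18a1 in the RVLM and Col17a1 in the CVLM, in CPM in every library by age in wk, WKY rats in blue and SHRs in red, with bars for the mean ± SD. Each panel has its own axis from 0; Col9a1 lies between 0 and 1.17 CPM in SHRs, and Col18a1 at 24 wk does not overlap between strains.

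Counted over the 5 ages, the NTS gave 5 gene-by-age values that were higher in SHRs and 2 that were lower of 125 tested, against 1.61% and 1.90% of all genes and ages. The CVLM gave 1 higher and 3 lower of 120 (1.81% and 2.75% of all), and the RVLM 2 higher and 6 lower of 110 (1.66% and 1.87% of all). Col16a1 accounted for 8 of the 11 lower values. Of all 19 values, 3 of Col16a1 kept their call under every alternative and in all 28 fits that left out 1 library. These were the values at 10 wk in the CVLM and at 12 and 16 wk in the RVLM. The exception was that the value in the CVLM missed a 2-fold change under the stricter call. No library of the SHR groups of 6 was left out. At 12 and 16 wk those fits therefore did not test how far the call rests on a single SHR of that age. No collagen passed the test that its strain difference varied with age in the NTS, CVLM or RVLM (edgeR), where 0.0145%, 0.0224% and 0.00746% of all genes passed. At an unadjusted p under 0.05 there were 4, 2 and 1 collagens, and DESeq2 also called 0 in each region, with 6, 3 and 1 at an unadjusted p under 0.05. A call at one age and not at another therefore does not show a change of the strain difference with age.

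Markers of other cells were compared between strains as well. Of all genes tested, 5.66%, 5.28% and 5.84% were higher in SHRs in the NTS, CVLM and RVLM, and 5.51% were lower in the NTS. With 8 to 11 genes a list, 0 or 1 call is near these shares. The summed level of 9 mural cell markers ranged from 43.9 to 83.9 CPM in WKY rats and from 60.1 to 125 CPM in SHRs in the NTS, from 66.2 to 104 and from 72.8 to 123 CPM in the CVLM, and from 61.3 to 111 and from 76.0 to 136 CPM in the RVLM. Of the 8 markers tested, 3, 1 and 4 were higher in SHRs, among them Tagln, a smooth muscle protein (1.12, 0.61 and 0.44, adjusted p = 2.43e-12, 6.16e-04 and 0.00262). The 9 endothelium markers summed to 264 to 348 CPM in WKY rats and 237 to 478 CPM in SHRs in the NTS, and 2, 0 and 2 of 9 were higher in SHRs in the NTS, CVLM and RVLM. The fibroblast markers summed to 74.0 to 210 CPM and 78.4 to 143 CPM in the NTS, with medians of 109 CPM in both strains, and 0 of 9, 0 of 9 and 1 of 11 were higher. No marker of these lists was at 0 in every library. In bulk tissue, fewer cells of a type and less RNA per cell cannot be told apart, and the part of mural cells in the collagen VI, Col18a1 and Col4a5 differences was not tested. Choroid plexus markers were lower in the NTS of SHRs (3 of 6 tested), and the number of collagens called by strain in the NTS was 7 without the marker-rich libraries, against 6 with them.

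The next comparison set 24 wk against 8 wk, averaged over both strains. Every collagen that passed had fallen: 4 of 25 in the NTS (16%), 9 of 24 in the CVLM (37.5%) and 4 of 22 in the RVLM (18.2%). Among all genes, 0.384%, 2.64% and 0.529% were lower at 24 wk and 0.377%, 4.15% and 0.425% were higher. No collagen was higher at 24 wk in any region by edgeR or by DESeq2, at an adjusted or an unadjusted p under 0.05. The median log2 change of the tested collagens was -0.32, -0.57 and -0.35, against -0.03, 0.02 and -0.02 over all genes. By class the medians were -0.25, -0.62 and -0.38 for the fibrillar collagens, -0.48, -0.75 and -0.36 for the basement membrane collagens and -0.29, -0.44 and -0.32 for the others.

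Col3a1 fell in all 3 regions. In the NTS the WKY libraries held 3.60, 3.91, 4.52, 4.78 and 10.8 CPM at 8 wk and 1.04, 1.3 and 2.01 CPM at 24 wk. The SHR libraries held 3.70, 5.35, 6.74, 7.58 and 14.1 CPM at 8 wk and 1.44, 1.55, 1.90, 2.2, 2.31 and 2.52 CPM at 24 wk. The ages did not overlap in either strain, and the mean change was -1.95 ± 0.29 on the log2 scale (adjusted p = 9.71e-05), with -1.96 in WKY rats and -1.93 in SHRs. From the youngest to the oldest age the means were 5.51, 5.56, 5.98, 2.67 and 1.45 CPM in WKY rats and 7.49, 6.02, 2.74, 2.21 and 1.98 CPM in SHRs. In the RVLM Col3a1 fell by 1.52 ± 0.29 (adjusted p = 0.00249) and in the CVLM by 0.95 ± 0.25 (adjusted p = 0.0166).

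Col1a1, the partner in type I collagen of the mostly undetected Col1a2, fell in the NTS by 1.52 ± 0.28 on the log2 scale (adjusted p = 0.00325). Its NTS libraries held 1.17, 2.18, 2.62, 3.68 and 4.01 CPM at 8 wk and 0.472 to 0.838 CPM at 24 wk in SHRs, which did not overlap, and 0.936, 1.43, 2.16, 2.18 and 2.45 CPM against 0.806, 0.849 and 1.04 CPM in WKY rats, which did. In the CVLM and RVLM its changes of -0.68 and -1.0 did not pass (adjusted p = 0.0752 and 0.192). Col20a1, a FACIT collagen, fell in every region, by 1.59 ± 0.33, 1.79 ± 0.32 and 1.60 ± 0.34 (adjusted p = 0.00826, 3.84e-04 and 0.00642 in the NTS, CVLM and RVLM). In the CVLM its values were 1.66, 1.95, 1.96, 2.13 and 3.11 CPM at 8 wk and 0.113, 0.115 and 0.731 CPM at 24 wk in WKY rats. In SHRs they were 1.18, 1.5, 2.06, 2.23 and 2.38 CPM at 8 wk and 0.212, 1.02, 1.09, 1.13, 1.21 and 1.31 CPM at 24 wk. The WKY ages stood apart, while 1.18 CPM at 8 wk in 1 SHR lay within the SHR range at 24 wk.

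Of the basement membrane collagens, Col4a1 fell in all 3 regions, by 0.62 ± 0.14, 0.61 ± 0.16 and 0.90 ± 0.17 (adjusted p = 0.0148, 0.0203 and 0.00177). In the RVLM its values were 10.2, 11.6, 12.7, 13.2 and 26.0 CPM at 8 wk and 6.03, 6.85 and 7.44 CPM at 24 wk in WKY rats, with no overlap, and 12.8 to 21.0 CPM against 7.61 to 15.6 CPM in SHRs. Col4a2 fell in the CVLM (-0.75 ± 0.22, adjusted p = 0.0326), where its changes in the NTS and RVLM of -0.32 and -0.36 did not pass. Col4a4 and Col4a5 fell in the CVLM as well, by 0.77 ± 0.17 and 0.88 ± 0.18 (adjusted p = 0.00359 and 0.00156).

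Col5a3, Col9a3 and Col11a2 fell in the CVLM too. Col5a3 held 8.14, 10.1, 11, 13.8 and 16.6 CPM at 8 wk and 3.53, 5.31 and 6.21 CPM at 24 wk in WKY rats, and 7.90, 8.75, 9.17, 10.2 and 14.2 CPM and 4.13, 4.51, 4.60, 5.13, 6.84 and 7.59 CPM in SHRs, with no overlap in either strain (-1.03 ± 0.15, adjusted p = 2.49e-05). Col9a3 fell by 0.80 ± 0.15 (adjusted p = 7.75e-04) and, in the RVLM, by 0.75 ± 0.17 (adjusted p = 0.0175). Col11a2 passed narrowly (-0.55 ± 0.17, adjusted p = 0.0464) and was lost in 14 of the 28 fits that left out 1 library each.

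Within single strains fewer collagens passed (edgeR). In the CVLM Col5a3 passed in both strains, and Col4a4, Col4a5 and Col9a3 in WKY rats alone. Col20a1 changed there by -2.7 in WKY rats (adjusted p = 0.00179) and -0.87 in SHRs (adjusted p = 0.445). Col4a2 changed by -1.12 in WKY rats (adjusted p = 0.0303) and -0.38 in SHRs (adjusted p = 0.813). Col1a1 in the NTS and Col3a1 and Col9a3 in the RVLM passed in SHRs alone. The edgeR test that the strain difference varied with age did not pass for Col20a1 or Col4a2 in the CVLM (adjusted p = 0.353 and 0.588). A call in 1 strain alone therefore does not show that the change with age differed by strain. The WKY libraries of Col20a1 at 24 wk in the CVLM held 1, 1 and 6 counts. Some of the age calls averaged over both strains rested on few libraries. Without the libraries whose names end in 2 outside 10 wk, Col3a1 was the collagen still called in the NTS, and Col1a1, Col20a1 and Col4a1 had adjusted p = 0.0577, 0.177 and 0.0577. The CVLM count was 5 without WKY 24 wk replicate 3, where Col3a1 was among the calls lost (adjusted p = 0.0763), and Col4a1 and Col4a2 were lost there without the libraries whose names end in 2 outside 10 wk (adjusted p = 0.0756 and 0.115). Col4a1, Col4a2 and Col11a2 were also lost there without the 2 libraries of conflicting age (adjusted p = 0.0642, 0.13 and 0.105). Col4a1 in the NTS was lost without WKY 24 wk replicate 1 or 3 (adjusted p = 0.0961 and 0.0595), and Col9a3 in the RVLM without WKY 24 wk replicate 2 (adjusted p = 0.0872). None of the 9, 9 and 11 fibroblast markers tested in the NTS, CVLM and RVLM passed between 8 and 24 wk. In the NTS their sum ranged from 85.8 to 144 CPM at 8 wk and from 78.4 to 119 CPM at 24 wk in WKY rats, and from 95.9 to 132 and from 101 to 143 CPM in SHRs. In the CVLM 2 of 9 endothelium markers, Tie1 and Kdr, and 1 of 8 mural markers, Pdgfrb, were also lower at 24 wk (-0.45, -0.39 and -0.61), and their part in the type IV changes was not tested.

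**Figure D4:**
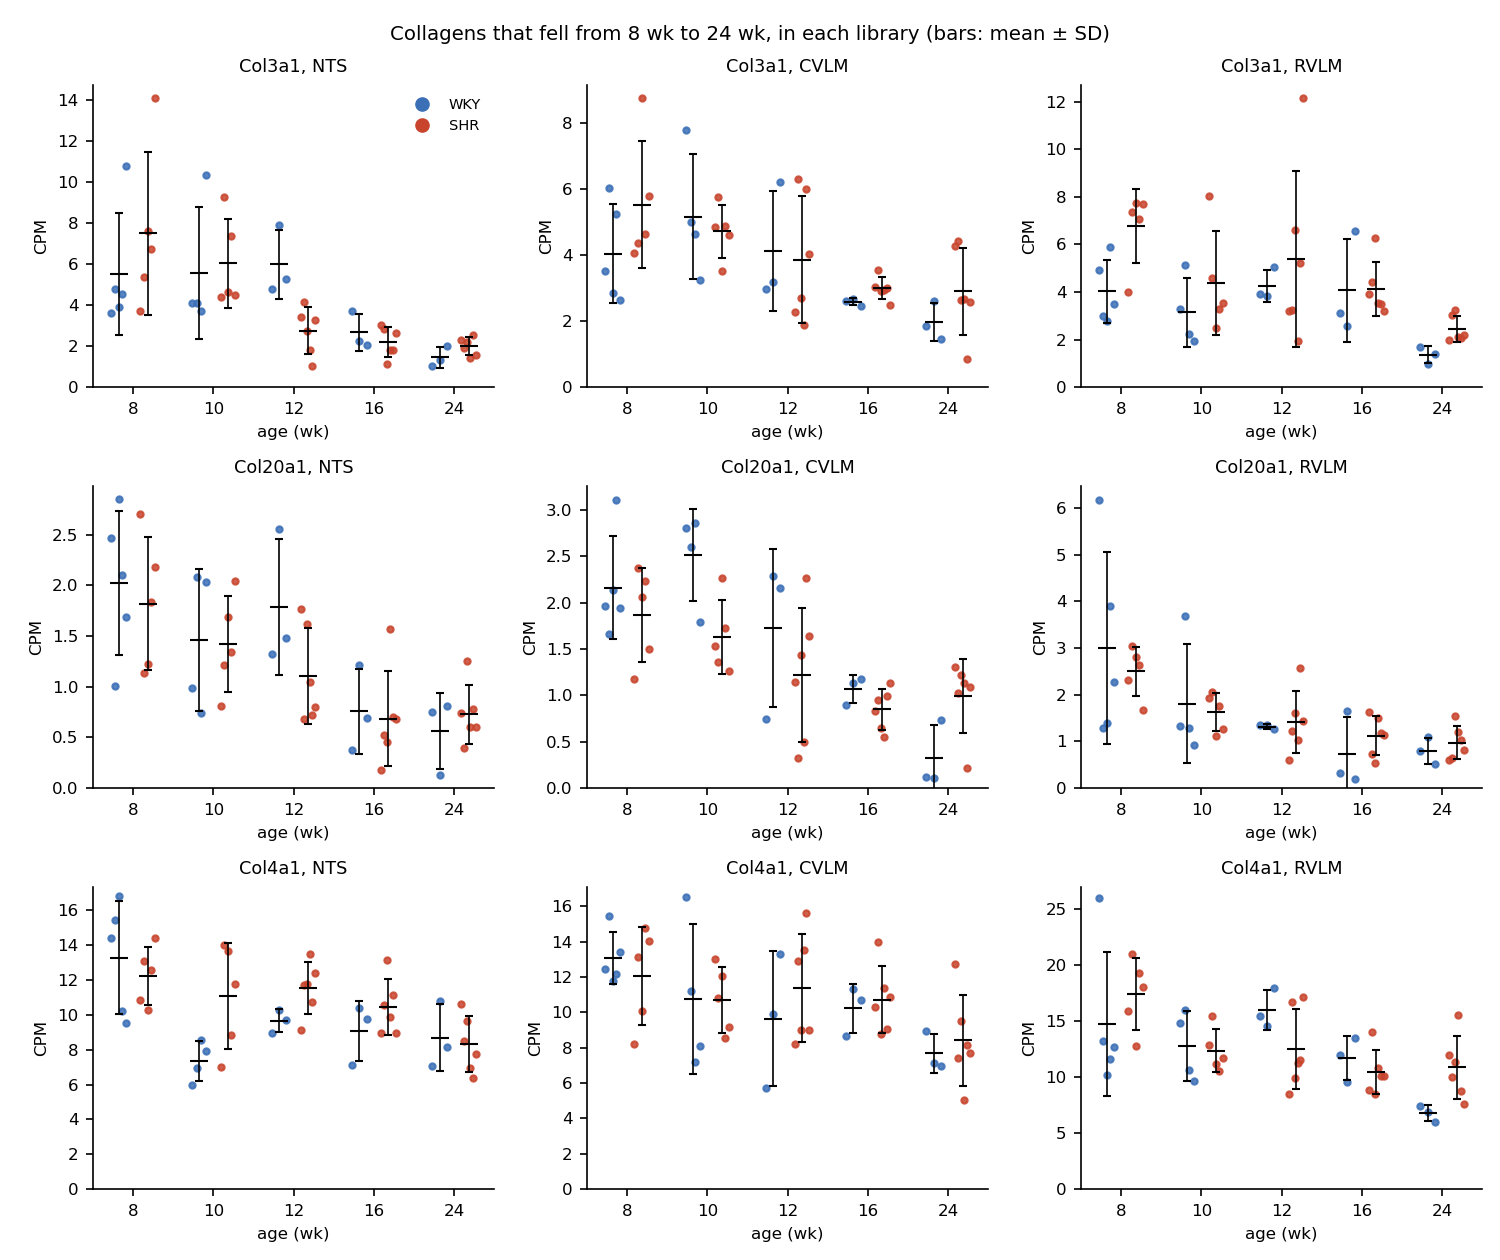
Col3a1, Col20a1 and Col4a1 in CPM in every library of the NTS, CVLM and RVLM by age in wk, WKY rats in blue and SHRs in red, with bars for the mean ± SD; each panel has its own axis from 0. All 9 panels are lower at 24 wk than at 8 wk, from -0.61 for Col4a1 in the CVLM to -1.95 for Col3a1 in the NTS on the log2 scale.

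Regions of the same rats were then compared in 1 fit over the libraries of all regions with the rat as a block, for the 28 collagens tested in at least 1 region. Most fibrillar collagens were higher in the NTS than in the ventrolateral medulla, and Col17a1 stood out in the CVLM. Against the CVLM, 13 collagens were higher in the NTS (46.4%) and 4 were lower (14.3%), beside 33.9% and 32.0% of all genes. Against the RVLM, 10 were higher in the NTS (35.7%) and 7 were lower (25%), beside 36.1% and 37.4% of all genes. Between the CVLM and the RVLM, 5 were higher in the CVLM (17.9%) and 6 were lower (21.4%), beside 26.1% and 28.3%. Apart from the collagens higher in the NTS than in the CVLM, these shares lay at or below the background. Those higher against the CVLM include the short chain collagen Col8a1 (0.61), which had passed the filter in the NTS alone, the region where it was highest. That call was lost without the 14 rats whose library names end in 2 (0.40, adjusted p = 0.0718).

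Of the 9 fibrillar collagens, 7 were higher in the NTS than in the CVLM and 6 were higher than in the RVLM, and 0 were lower in either case. Against the CVLM, Col27a1 (0.41) was lost with no filter (adjusted p = 0.0642). Col5a3 (0.17) was lost there with no filter (adjusted p = 0.0545) and without the 14 rats whose library names end in 2 (adjusted p = 0.0558). Col27a1 had passed the filter in the NTS alone, the region where it was highest. Col2a1, the main fibrillar collagen of cartilage, averaged 3.46 ± 1.19, 1.94 ± 0.759 and 0.894 ± 0.560 CPM (SD, n = 46) in the NTS, CVLM and RVLM. The NTS exceeded the RVLM in 46 of 46 rats (4.09-fold, log2 difference 2.03 ± 0.14) and higher in the CVLM than in the RVLM in 40 (1.18 ± 0.15). Col11a1, which joins type II fibrils, averaged 7.12 ± 2.19, 3.34 ± 1.02 and 2.54 ± 0.835 CPM. The NTS exceeded the CVLM in 45 of 46 rats (1.1) and the RVLM in all 46 (1.5 ± 0.09). Its partner Col11a2 averaged 37.5 ± 10.3, 21.4 ± 5.99 and 22.1 ± 6.69 CPM and exceeded its CVLM level there in 45 of 46 rats (0.80). Col5a2 averaged 9.89 ± 2.48, 5.33 ± 1.25 and 7.55 ± 1.80 CPM, with the CVLM below the RVLM (-0.48).

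The transmembrane collagens showed the widest regional differences. Col17a1 ranged from 0.339 to 4.29 CPM in the CVLM (mean 1.70 ± 0.861), while it reached at most 0.733 CPM in the NTS and 0.791 CPM in the RVLM. It was 9.16-fold higher in the CVLM than in the RVLM, in 46 of 46 rats (3.2 ± 0.22, adjusted p = 1.43e-24), and 6.45-fold higher than in the NTS, in 45 of 46 rats. Col17a1 passed the filter in the CVLM alone, and so entered this comparison through the region where it was highest. Its median count was 2 in both the NTS and the RVLM. Col25a1 averaged 1.53 ± 0.746, 1.09 ± 0.597 and 0.407 ± 0.308 CPM in the same order. The NTS exceeded the RVLM by 4.33-fold (44 of 46 rats, 2.12 ± 0.17, adjusted p = 1.74e-20). Col25a1 had not passed the filter in the RVLM.

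Among the chains of vessels and beaded filaments, Col6a2 was highest in the NTS, at 8.26 ± 2.72 CPM against 4.61 ± 1.72 CPM in the CVLM and 4.18 ± 1.80 CPM in the RVLM (0.84 and 1.05, higher in 43 of 46 rats each time). Col4a2 averaged 7.01, 5.73 and 8.4 CPM and Col18a1 4.81, 3.84 and 5.31 CPM, both lowest in the CVLM (-0.57 ± 0.09 and -0.42 against the RVLM). The FACIT genes Col16a1 and Col9a2 were lowest in the NTS, Col16a1 by 0.36 below the CVLM and 0.39 below the RVLM, and Col9a2 by 0.23 and 0.51. The Col6a2 difference between the CVLM and the RVLM (0.21) was lost without the 14 rats whose library names end in 2 (0.15, adjusted p = 0.224). All 9 endothelium markers were lower in the NTS than in the RVLM and 8 of 9 were lower than in the CVLM, while 5 of 11 fibroblast markers were higher in the NTS than in the CVLM and choroid plexus and ependyma markers were higher there (5 of 6 and 5 of 5). The part of these cells in the regional collagen differences was not tested.

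**Figure D5:**
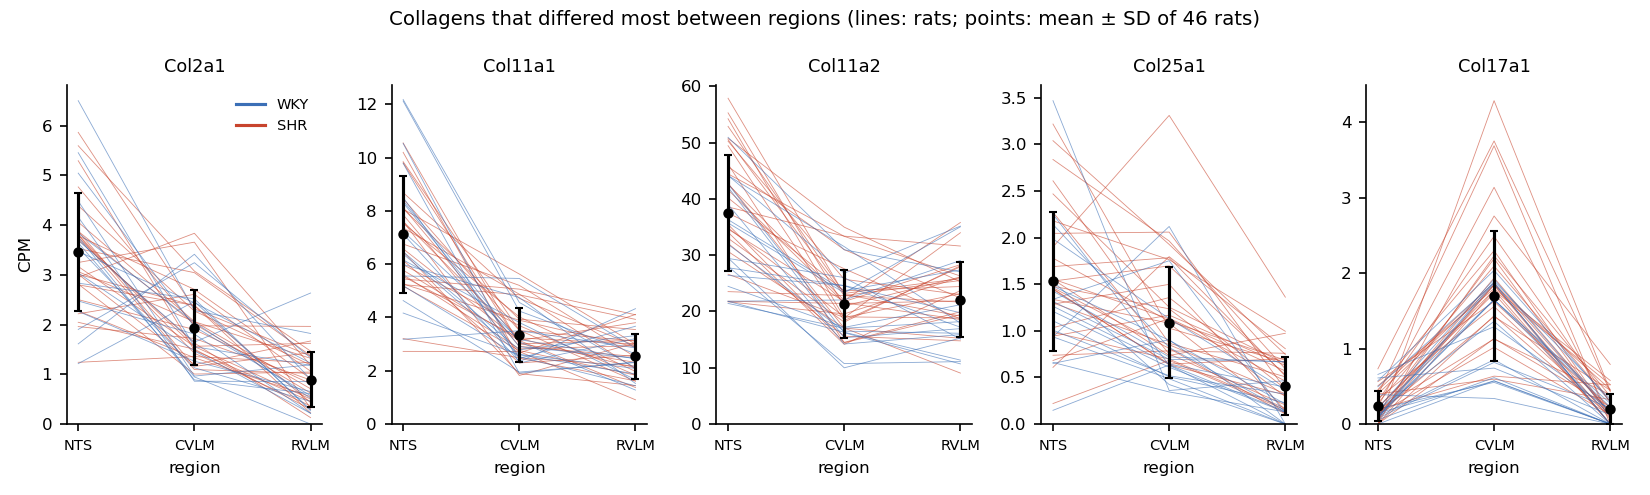
Col2a1, Col11a1, Col11a2, Col25a1 and Col17a1 in CPM in the NTS, CVLM and RVLM; each thin line is 1 rat, blue for WKY and red for SHR, and black points with bars give the mean ± SD of the 46 rats. Col2a1, Col11a1 and Col25a1 descend from the NTS to the RVLM, Col11a2 is highest in the NTS, and Col17a1 peaks in the CVLM in nearly every rat.

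Whether the strain difference itself differed between regions was tested in the same fit, and no collagen passed for any of the 3 pairs (edgeR), beside 0.328%, 1.94% and 0.385% of all genes for the NTS and CVLM, the NTS and RVLM, and the CVLM and RVLM. At an unadjusted p under 0.05 there were 3, 7 and 2 collagens. limma voom called 0, 1 and 0, with 4, 7 and 2 at an unadjusted p under 0.05. Its call was Col9a1 between the NTS and the RVLM (1.5, adjusted p = 0.0072), where edgeR gave 1.23 ± 0.37 (adjusted p = 0.0535). For Col16a1 the strain difference was larger in the RVLM than in the NTS by 0.38 ± 0.11, which did not pass (adjusted p = 0.0518). The calls listed above for single regions therefore do not show that a collagen differed by strain in one region more than in another.

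Partner chains were compared across the 46 libraries of a region after the mean of each strain and age group was subtracted, in 15 tests with 100000 permutations within groups. Col4a1 and Col4a2, which share the promoter shown above, moved together in the NTS (Pearson r = 0.69, Spearman rho = 0.67) and in the RVLM (0.80 and 0.77), each with a permutation p of 1e-05, the smallest the permutations can give, and an adjusted p of 7.5e-05. In the CVLM r was 0.42 (adjusted p = 0.039) and rho 0.38 (adjusted p = 0.0547), and r was 0.32 without the 2 libraries farthest from the median of Col4a1 (adjusted p = 0.156). Col6a1 and Col6a2, the chains of collagen VI, had r of 0.23, 0.40 and 0.55 and rho of 0.37, 0.42 and 0.47 in the NTS, CVLM and RVLM (adjusted p of r = 0.276, 0.039 and 0.00275). Without the 2 farthest libraries, r in the CVLM was 0.34 (adjusted p = 0.108). Col4a1 and the endothelial tight junction gene Cldn5 gave r of -0.05, 0.09 and -0.09, none of which passed. Col1a1 and Col1a2 gave 0.17, 0.13 and -0.21, and Col1a2 and the fibroblast proteoglycan Dcn 0.28, -0.21 and 0.28, which did not pass either. Col1a2 had no count in 40, 41 and 34 of the 46 libraries, so its pairs cannot show whether these genes moved together.

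Collagen chains are hydroxylated, folded and carried out of the cell by dedicated proteins, trimmed and cross-linked outside it, bound by receptors and cut by proteases. Of the biosynthesis genes tested, 2 of 16 were higher and 2 lower in the NTS of SHRs, 0 of 16 higher and 2 lower in the CVLM, and 3 of 15 higher and 2 lower in the RVLM. Over all genes tested, 5.66% were higher and 5.51% lower in the NTS, 5.28% and 7.0% in the CVLM and 5.84% and 4.98% in the RVLM, and with 6 to 16 genes a list, 1 call is near these shares. The lower genes were P3h3 and Plod1 each time. P3h3, a prolyl 3-hydroxylase family member that works beside Plod1, was lower in SHRs by 1.1, 1.11 and 1.12 on the log2 scale (11.3 against 5.17, 9.15 against 4.27 and 8.18 against 3.69 CPM in the NTS, CVLM and RVLM, adjusted p = 4.03e-06, 5.49e-05 and 2.83e-06). Plod1, a lysyl hydroxylase, was lower by 0.53, 0.59 and 0.62 (adjusted p = 3.11e-11, 7.96e-15 and 5.92e-11). P3h4, the scaffold of the complex that P3h3 and Plod1 form, was higher in the NTS and RVLM (0.98 and 0.73, adjusted p = 3.75e-04 and 0.0065) and had 0.59 in the CVLM (adjusted p = 0.0618). Serpinh1, the collagen chaperone HSP47, was higher in the NTS (0.34, adjusted p = 0.00766).

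Of the processing genes, 1 of 7, 0 of 7 and 1 of 8 were higher and 1, 0 and 1 lower. Adamts3, which cuts the ends of fibrillar procollagen, was higher in the NTS and RVLM (0.34 and 0.66, adjusted p = 0.0294 and 2.15e-04), and Lox, a cross-linking enzyme, was lower in the RVLM (-1.17, adjusted p = 0.00737). Of the collagen receptors, 2 of 6, 1 of 7 and 2 of 6 were higher and 0 lower; Adgrg1, a receptor of type III collagen, was higher in each region (0.17, 0.28 and 0.27, adjusted p = 0.0281, 6.43e-06 and 0.00856). Proteases and their inhibitors gave 1, 2 and 1 of 9 higher and 0, 0 and 1 lower. The partners of collagen in basement membranes gave 1 of 11, 3 of 13 and 1 of 11 higher and 0 lower, with the laminin chain Lamc3 higher in each region (0.86, 0.67 and 0.87, adjusted p = 1.79e-04, 0.0121 and 1.66e-04). The partners in fibrils gave 0 of 9 higher and 1 lower in each region, which was fibronectin, Fn1 (-0.69, -1.17 and -1.09, adjusted p = 1.59e-08, 1.44e-16 and 1.34e-13).

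Between 8 and 24 wk the 6 lists gave their calls in the NTS and CVLM, where 0.384% and 2.64% of all genes were lower. In the NTS Serpinh1 was the biosynthesis gene that fell (-0.54, adjusted p = 0.0463). In the CVLM 3 of 16 fell, Serpinh1 (-0.56, adjusted p = 0.00574), the coat protein Sec24d that loads procollagen for export (-0.45, adjusted p = 0.00452) and Plod1 (-0.24, adjusted p = 0.0241), as did the basement membrane linkers Nid1 and Nid2 (-0.75 and -0.65, adjusted p = 3.84e-05 and 0.0488) and the procollagen enhancer Pcolce (-0.80, adjusted p = 0.0489). Of the receptors 2 of 7 fell there, Itgb1 and Ddr1 (-0.37 and -0.34, adjusted p = 0.00321 and 0.0281), and of the proteases and inhibitors 1 of 9, the gelatinase Mmp2 (-0.57, adjusted p = 0.0243). Sparc, a matricellular protein that binds collagen, rose in the CVLM (0.31, adjusted p = 0.0147). In the RVLM none of the 6 lists gave a call with age.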

How the data were processed

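Total RNA from brainstem punches of 46 rats in 3 regions was sequenced as paired-end reads. The authors aligned the reads to the rat genome rn6 with STAR and quantified genes with RSEM at default parameters, and deposited 1 table of expected counts per region. The study's methods name a batch adjustment with ComBat_seq; whether the deposited expected counts had been through it is not stated. In the tables for the NTS, CVLM and RVLM, respectively, 5.02%, 4.95% and 4.88% of the values were not whole, and all were rounded to whole numbers.

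The rule for the collagens, their classes and the other gene lists were chosen with earlier results of these data known. Replicates were separate rats, and all 270 pairs of libraries within groups differed by more than sampling noise (lowest chi-square per gene 4.81). Genes with a regularized log maximum of at least 3.5 (DESeq2 1.42.0) were kept in each region, 13793, 13408 and 13411 in the NTS, CVLM and RVLM. Counts were fitted with edgeR 4.0.16 in R 4.3.3 (TMM normalization, glmQLFit and glmQLFTest) with 1 fit per region over 10 groups of strain and age, where the main test was the mean of the 5 strain contrasts. Other contrasts took single ages, the variation of the strain effect across ages and 24 wk against 8 wk. Regions were compared in a fit over all libraries with the rat as a block, for 14043 genes. P-values were adjusted by the Benjamini-Hochberg method over all genes of a contrast, and a call is an adjusted p under 0.05. Printed CPM use TMM factors set over the libraries of all regions, so a ratio of printed means can differ slightly from a fitted fold change. Correlations used log2 CPM with a prior count of 0.5. With 1 fit per region, the median SE of the log2 strain contrast was 0.09 in the NTS and CVLM and 0.10 in the RVLM, and genes under about 1 CPM rest on few counts.

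Any collagen could be named. Those called by strain on average over ages or at several ages, a fixed set of main chains, the 3 highest and lowest per pair of regions and the 3 largest changes with age were given in full, and from each other list up to 5 genes with the lowest p were eligible. Alternatives were DESeq2, limma voom (limma 3.58.1), another normalization, no filter, a replicate block and a stricter call. The number that ends the library names was also used as a term or as a reason to leave libraries out. Single libraries were left out in turn, only from groups of 5 libraries or fewer, so none came from the larger SHR groups. Leaving out libraries with over 100 CPM of choroid plexus markers or over 180 CPM of fibroblast markers was chosen after seeing the data. Same-numbered replicates of the strains correlated over 0.1 in 33 of 54 pairs. The main fits left the numbers out, the block was run as an alternative, and what same-numbered rats shared was not tested. Every pair was over 0.1 in the NTS at 12 and 24 wk and in the CVLM at 10 and 12 wk, and there the blocked value is given where it changed a call.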

Additional observations from a re-analysis of the deposited data

Results flagged for a closer look

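In 8 of the 126 groups of 4 to 6 libraries tested over the named strain-different collagens, 1 library lay far from the rest by Dixon's test, about as many as the 1 in 20 that chance flags. The groups of 3 WKY libraries were not screened. Col6a1 in the NTS was 2.55 CPM in WKY 10 wk replicate 2 (others 3.47 to 3.64 CPM) and 7.01 CPM in SHR 24 wk replicate 3 (others 2.83 to 4.26 CPM). Col9a2 in the NTS was 13.5 CPM in SHR 10 wk replicate 3 (others 9.26 to 10.5 CPM). Col16a1 was 12.9 CPM in the NTS of SHR 8 wk replicate 5 (others 7.58 to 8.42 CPM) and 14.1 CPM in the RVLM of SHR 8 wk replicate 2 (others 9.39 to 10.5 CPM), the SHR inside the WKY range at that age. Col25a1 in the CVLM was 3.31 CPM in SHR 16 wk replicate 2 (others 0.644 to 1.13 CPM). Col9a1 in the RVLM was 1.17 CPM in SHR 10 wk replicate 4 (others 0.124 to 0.369 CPM) and 0.914 CPM in SHR 12 wk replicate 1 (others 0 to 0.130 CPM), the highest SHR values of that gene.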

How the results depend on the processing

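Of 2092 recomputed values of 99 single-gene results, 1933 kept their direction and side of the threshold, 159 kept their direction and were no longer past it, and 0 changed direction. A stricter call asked for an adjusted p of at most 0.01 and at least a 2-fold change. With it, collagens called by strain over the ages were 0, 0 and 1 in the NTS, CVLM and RVLM, and gene-by-age values 0, 0 and 5. Age calls were Col1a1, Col3a1 and Col20a1 in the NTS, 2 collagens in the CVLM and 2 in the RVLM. Region calls were 2, 4 and 3 (NTS with CVLM, NTS with RVLM, CVLM with RVLM). Gene-by-age values in the NTS, 7 as reported, were 4 with no filter, 3 with the replicate block, 2 with each age fitted alone and 4 without the marker-rich libraries. In the CVLM (4) they were 7 with the name number as a term, and in the RVLM (8) 4 with each age alone. Age calls in the NTS (4) numbered 1 once the libraries named with a 2 at ages other than 10 wk were left out, and the strain effect between the NTS and the RVLM gave 1 call with limma voom. The cause of these moves was not tested. Leaving out single libraries gave 6 to 7, 6 to 8 and 5 to 6 calls by strain in the NTS, CVLM and RVLM, 4 to 11 (11 without WKY 8 wk replicate 1), 2 to 6 and 7 to 10 by age, 0 for the strain effect across ages, and 3 to 4, 5 to 10 and 3 to 4 for 24 wk against 8 wk. The replicate block, whose same-numbered libraries correlated over 0.1 in 33 of 54 pairs, gave 6, 6 and 7 calls by strain. It gave 4 in the CVLM and 6 in the RVLM by age, and 0 across ages. Single-age calls lost with it included Col16a1 at 16 wk in the NTS and CVLM (adjusted p = 0.281 and 0.0617), Col9a1 at 12 wk (-2.21, adjusted p = 0.238) and Col18a1 at 24 wk (0.85, adjusted p = 0.341) in the RVLM, Col18a1 at 24 wk in the CVLM (adjusted p = 0.0709), and Col4a1, Col4a5 and Col6a2 at 10 wk in the NTS (adjusted p = 0.157, 0.0572 and 0.0508).

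Over libraries whose names end in 1, r was 0.49 for Col1a2 and Dcn in the NTS (adjusted p = 0.0477), 0.409 for Col4a1 and Col4a2 in the CVLM (adjusted p = 0.081), and 0.380 and 0.292 for Col6a1 and Col6a2 in the CVLM and RVLM (adjusted p = 0.058 and 0.257). The value for Col1a2 rests on the few libraries with a count of that gene. Without the 2 farthest libraries the CVLM values were 0.321 for type IV and 0.341 for type VI. The weak r of Col4a1 and Cldn5 turned sign to 0.0539 and 0.0410 in the NTS and to -0.167 in the CVLM. Depth limits genes under 1 CPM, such as Col9a1 in every region, Col17a1 in the NTS and RVLM and Col25a1 in the RVLM. Col1a2 was at 0 in most libraries but reached 102 counts in the NTS, and the reason was not tested. In the groups of 3 WKY rats at 12, 16 and 24 wk each call rests on 3 control libraries.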
